A study of Mus musculus with 22 samples.

Results

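Lymphatic endothelial cells were a small fraction of single-cell libraries prepared from pooled solid organs of tumor-free mice. A cell barcode was counted as lymphatic when it held at least 1 unique molecular identifier (UMI, 1 captured RNA molecule) of at least 2 of the 6 genes Mmrn1, Prox1, Ccl21a, Flt4, Reln and Pdpn, with Mmrn1 or Prox1 among them, and no UMI of the leukocyte gene Ptprc, the epithelial gene Epcam or the liver sinusoidal gene Stab2. Barcodes with fewer than 200 detected genes or with more than 25% mitochondrial UMIs were left out first. The rule found 244 barcodes among the 93055 that passed in 11 tissue libraries (0.262%), of 179929 barcodes in the whole series of 22 libraries. The members were thus chosen by measured RNA levels, and the levels of the rule's own genes are a description only. They were compared with 11872 blood endothelial barcodes, which held at least 2 of Pecam1, Cdh5 and Egfl7 and none of Mmrn1, Prox1, Ptprc, Epcam and Stab2. They were also compared with 725 sinusoidal barcodes, which held Stab2, at least 1 of the same 3 endothelial genes and none of Mmrn1, Prox1, Ptprc and Epcam.

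All tissue libraries came from mice that carry Prom1-CreERT2, a Cre recombinase that tamoxifen activates and the Prom1 promoter drives, and Rosa26ZSG, a ZsGreen reporter that Cre switches on. They differed in Nalcn, the gene of a sodium leak channel, which was wild type in 5 libraries (wt, 571 to 654 days of age), heterozygous in 2 (het, 551 days) and null in 2 (null, 552 and 611 days). The other 2 libraries entered no genotype comparison, since their labels disagree: 1 (male, 610 days) is titled het with a null strain, and 1 (female, 647 days) is titled null with a strain that names no Nalcn allele. When tamoxifen was given is not stated per library. Each library pools kidney, liver, lung and stomach with epididymis if labelled male (wt 1, wt 2, wt 3, het 1, het 2 and null 2) or uterus if labelled female (wt 4, wt 5 and null 3), so that the organ of a barcode is not known here. Members of null 3 held Y-linked and epididymal RNA despite its label, as given below. Recombination occurs in cells in which the Prom1 promoter is active when tamoxifen acts, and the paper uses the reporter to trace their lineage. Present Prom1 RNA therefore does not tell which barcodes recombined. The 244 lymphatic barcodes held 4 UMIs of Prom1 and 0 of Nalcn, so the deletion could not be checked in them from their RNA. The labels name no animals, so libraries are the replicates, and their spread may in part be technical. Where classes are compared within libraries, p-values measure the spread of the class difference from library to library. For genotypes within lymphatic barcodes and for shares, they measure the spread between libraries.

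Lymphatic capillaries take up fluid, large lipoprotein particles and immune cells from tissue through loose, button-like junctions, and collecting vessels with valves carry them to lymph nodes. Prox1 is the transcription factor that sets and keeps lymphatic identity in endothelium of venous origin, and the growth factor VEGF-C acts through the receptor tyrosine kinase VEGFR-3, the product of Flt4, with Nrp2 as a coreceptor. Lymphatic endothelium secretes CCL21, the chemokine that draws dendritic cells and T cells carrying CCR7 into lymph vessels.

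Ccl21a was the most abundant of the 6 rule genes, and its sequence matters for reading its counts because the mouse genome holds near-identical copies. Ccl21a (ENSMUSG00000094686) lies on chromosome 4 at chr4:42772860-42773993 on the minus strand of GRCm38, with Gm21541 (ENSMUSG00000094065) at chr4:41903610-41904743 on the plus strand and Ccl21b (ENSMUSG00000095675) at chr4:42255767-42256432 on the plus strand, in the GENCODE vM21 annotation. The coding sequences of Ccl21a and Gm21541 are 399 bases long, of which 397 are identical (99.5%), and they differ by T84A and C194T, counted from 1 at the first base of the start codon with the Ccl21a base first. Bases 61 to 210 of the coding sequence are shown, from the GRCm38 genome, with capitals at the 2 positions that differ. The stretch of Ccl21b is identical to that of Gm21541.
Ccl21a: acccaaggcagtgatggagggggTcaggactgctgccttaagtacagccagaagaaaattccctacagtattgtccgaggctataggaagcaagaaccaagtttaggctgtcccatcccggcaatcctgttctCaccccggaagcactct
Gm21541: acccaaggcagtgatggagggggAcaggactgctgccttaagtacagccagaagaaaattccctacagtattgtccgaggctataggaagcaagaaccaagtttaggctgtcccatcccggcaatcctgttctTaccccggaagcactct
In the 244 lymphatic barcodes, 4009 UMIs were assigned to Ccl21a, 51 to Gm21541, 1 to Ccl21c and 0 to Ccl21b. How reads were divided between the copies cannot be seen in the deposited counts, so the values of Gm21541 are uncertain.

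The lymphatic barcodes held a median of 1729.5 UMIs (range 514 to 16293), 967 detected genes and 13.5% mitochondrial UMIs, beside medians of 1687 UMIs in blood endothelial and 1699 UMIs in sinusoidal barcodes. Among the 244, Mmrn1, which codes for the secreted protein multimerin 1, was detected in 218 (89.3%), Ccl21a in 199 (81.6%), Prox1 in 160 (65.6%), Flt4 in 158 (64.8%), Reln, the secreted glycoprotein reelin, in 155 (63.5%) and Pdpn, the membrane glycoprotein podoplanin, in 75 (30.7%). Most members were well inside the rule, with 196 holding at least 3 of the 6 genes, 98 holding 5 or 6 and 27 holding all 6. At the edge of the rule, the 48 members with exactly 2 of the genes had a median of 40.8 UMIs per 10000 of 20 lymphatic identity genes, and the 242 barcodes just outside it, with 1 gene only, had 16.5. Endothelial RNA was present in most members, with 202 of 244 holding at least 1 of Pecam1, Cdh5 and Egfl7.

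The label was checked against the members' own RNA, and it held for most but not all of them. The 199 members with a Ccl21a UMI carried 115 UMIs of the identity genes and 34.2 of 14 pan-endothelial genes per 10000, and 171 of them held an endothelial gene. Of the 45 without Ccl21a, 15 qualified only through Flt4, a receptor that some blood capillaries and liver sinusoids also express, and these had 18.9 UMIs of identity genes but 81.3 of pan-endothelial genes per 10000, with Flt1, the VEGF receptor of blood endothelium, at 1094 CPM (UMIs of a gene per 1000000 UMIs of the summed barcodes). A further 13 qualified only through Pdpn, which fibroblasts and mesothelium also express, and these had 5.18 pan-endothelial UMIs per 10000, an endothelial gene in 3 of 13, and Dcn, a proteoglycan of fibroblasts, at 5612 CPM. By their medians, the identity genes therefore bear out the label for the members with Ccl21a and go against it for the groups of 15 and 13. These genes are not particular to lymphatic cells. Summed per library in the 6 libraries compared below, they had medians of 10865 CPM in lymphatic, 5642 in sinusoidal and 1597 in blood endothelial barcodes. Pooled, the 48 members with exactly 2 rule genes had 3627 CPM, below that sinusoidal median, and the 196 with at least 3 had 11635 CPM. Single barcodes differed from their group. In wt 4, 1 that qualified only through Pdpn had 88.7 identity UMIs per 10000, and 1 with Ccl21a had 3.40. All 28 stayed in the sums below unless a Ccl21a UMI is named as required.

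**Figure D1:**
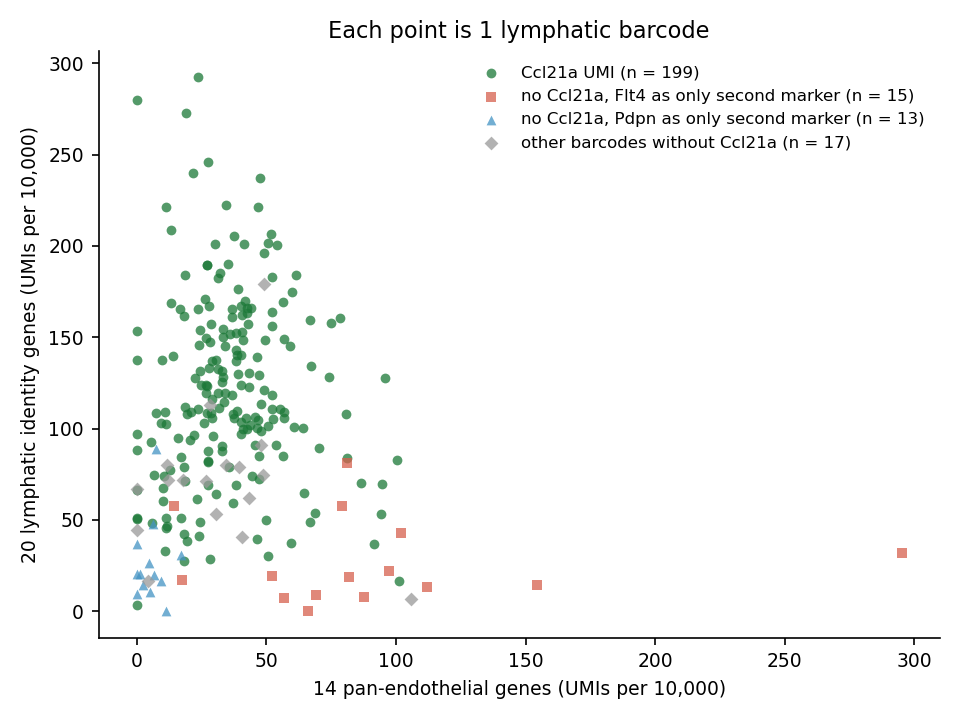
Each point is 1 of the 244 lymphatic barcodes, placed by its UMIs of 14 pan-endothelial genes (x axis) and of 20 lymphatic identity genes (y axis), both per 10000 UMIs, and colored by the markers that let it qualify. By their medians, the 199 barcodes with Ccl21a lie highest (115 identity UMIs), the 15 that qualified through Flt4 only lie lower and to the right (18.9 identity and 81.3 pan-endothelial UMIs) and the 13 through Pdpn only lower and to the left (20.1 and 5.18), with single barcodes of each kind among the others.

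The libraries contributed unequally. Members numbered 4, 12, 28, 58 and 0 in wt 1 to wt 5, 15 and 8 in het 1 and het 2, 33 and 35 in null 2 and null 3, and 8 and 43 in the libraries without a group. Scrublet was run here to score doublets, and in each library the highest scores were marked up to a share fixed beforehand by its number of barcodes. The shares of all passing barcodes are thus settings and not measured doublet rates. By this rule 56 of the 244 members (23%) and 15084 of all 93055 passing barcodes (16.2%) were marked. Marked members were 17 of 35 in null 3, where the share set for passing barcodes was 16.5%, 16 of 58 in wt 4 (22.3%) and 5 of 8 in het 2 (7.39%). No member shared its barcode sequence with a member of another library, and any pair of tissue libraries shared at most 0.900% of the barcodes of the smaller one. Class comparisons used the 6 libraries of a known genotype with at least 10 barcodes of each class (wt 2, wt 3, wt 4, het 1, null 2 and null 3), which gave 44469 to 140338 lymphatic UMIs a library. The second library without a group, with 43 members, also reached this minimum and entered as an alternative only, with which edgeR called 1403 genes against blood endothelium and 555 against sinusoidal barcodes.

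The library wt 2 stood apart from the other 5. A Ccl21a UMI was found in 5 of its 12 members (41.7%) but in 33 of 35 (94.3%) in null 3. The members of wt 2 without it all qualified only through Flt4 or only through Pdpn, the groups whose identity genes go against the label. They include barcodes of 13837, 7930 and 6398 UMIs, of 57192 in all 12 members, beside 1427 to 11373 in the 5 with Ccl21a. The levels of wt 2 given below are sums over all of these. The members of wt 2 carried 5141 CPM of fibroblast list genes (60.6 to 652 elsewhere), 4668 CPM of blood endothelial list genes (1952 to 2661 elsewhere) and 22171 CPM of erythroid list genes, which were at 11221 CPM in null 2 and 121 to 570 in the others. The library null 3 is labelled female, yet 7 of its 35 members held Y-linked RNA without Xist and 16 held Xist without Y-linked RNA, with none holding both. Members of null 3 carried 8042 CPM of epididymal list genes, beside 855 in null 2 and 0 to 197 in the other 4 libraries. Without wt 2, 17 of 19 lymphatic identity genes were higher than in blood endothelium, 18 of 20 blood endothelial genes lower and 9 of 9 antigen presentation genes lower, and without null 3 these were 16, 17 and 4, beside the counts from all 6 libraries given below.

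The levels of the rule genes, given as a description without a test, spanned a wide range within the class. Mmrn1 was at 717, 2440, 3563, 2318, 2249 and 2363 CPM in wt 2, wt 3, wt 4, het 1, null 2 and null 3, the order used for all values below, with the lowest value in wt 2. Prox1 was at 297, 879, 941, 1092, 765 and 712 CPM. Ccl21a was at 1853, 5947, 5273, 10523, 7039 and 10102 CPM, a mean of 6789 ± 3236 (SD, n = 6), against 1.91 ± 1.17 in blood endothelial and 2.99 in sinusoidal barcodes. Flt4 averaged 538 ± 232 CPM in lymphatic and 550 ± 294 CPM in sinusoidal barcodes, and 58.7 ± 15.5 CPM in blood endothelium. Reln averaged 706 ± 324 CPM against 0.409 CPM in blood endothelium, and Pdpn 254 ± 138 CPM against 7.39 CPM. Of the genes that define the comparison class, Pecam1 (532 ± 50.5 CPM), Cdh5 (529 ± 151 CPM) and Egfl7 (635 ± 158 CPM) were all present in lymphatic barcodes, although the lymphatic rule did not ask for them.

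Lymphatic and blood endothelium are sister lineages, and the first comparison measured which genes outside the rule separate them. Lymphatic barcodes carried more RNA of the hyaluronan receptor Lyve1, the peptide precursor Nts and the secreted fibrinogen-like protein Fgl2. They carried less of most blood endothelial list genes and of several antigen presentation and lipid handling genes. Of 7954 genes tested in 6 libraries, with the library as a block, edgeR's quasi-likelihood test called 1221 at a Benjamini-Hochberg adjusted p under 0.05 (15.4%), 501 higher (6.3%) and 720 lower (9.05%) in lymphatic barcodes. DESeq2 called 545 higher (6.85%) and 473 lower (5.95%), 12.8% in all, and with every barcode thinned to 1000 UMIs edgeR called 207 higher and 630 lower, so that the balance of directions depends on the method. The count was 1498 without wt 2, 842 without wt 4 and within that range without any other library, and 1483 with only the members that held Ccl21a, where wt 2 fell under the minimum and 5 libraries were left (an alternative chosen after seeing the data). With at most 10% mitochondrial UMIs only het 1 and wt 4 reached the minimum, and 550 of 5671 genes were called, 274 higher and 276 lower. The median log2 difference over all tested genes was -0.12. Cells were assigned by 12 genes of the same barcodes, so genes that track those markers separate the classes in part by construction. The tests below do not remove this, and a call does not mean that a difference is even across libraries.

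Of 20 lymphatic identity genes, a list that holds none of the 6 markers, 19 were tested and 16 were higher in lymphatic barcodes and 0 lower, with a median log2 difference of 3.09. The list was chosen with lymphatic expression known, so its direction is not independent evidence. Lyve1 was at 280, 2671, 1689, 2563, 1777 and 1757 CPM in lymphatic barcodes and at 84.1, 191, 298, 287, 131 and 205 CPM in blood endothelium. The lowest lymphatic value, in wt 2, lay just below the highest blood endothelial values, in wt 4 and het 1, and in every library the lymphatic value was the higher (log2 difference 2.94 ± 0.24 SE, edgeR adjusted p = 1.14e-09). Fgl2 was at 542, 1682, 1347, 2085, 2226 and 1484 CPM against a mean of 25.8 ± 6.6 CPM (log2 difference 5.74 ± 0.30, edgeR adjusted p = 7.17e-13), and the classes did not overlap. Thy1, a GPI-anchored surface glycoprotein, was at 227, 330, 420, 245, 360 and 167 CPM against 8.74 ± 7.16 CPM (log2 difference 5.04 ± 0.36, edgeR adjusted p = 1.29e-10).

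The transcription factors of the identity list, Maf, Nr2f2 and Tbx1, followed the same direction, as did the receptor genes Stab1 and Nrp2 of that list. Gata2, a factor of the valve list, was lower, as given below. Maf, a basic leucine zipper factor, was at 810 ± 305 CPM in lymphatic and 156 ± 45.7 CPM in blood endothelial barcodes (log2 difference 2.23 ± 0.21, edgeR adjusted p = 1.56e-08). Nr2f2, the nuclear receptor COUP-TFII that acts with Prox1 in venous and lymphatic endothelium, was at 474 ± 169 against 104 ± 11.3 CPM (log2 difference 2.03 ± 0.22, edgeR adjusted p = 1.9e-07). Tbx1, a T-box factor needed for lymphatic vessel growth, was at 0, 110, 185, 85.9, 157 and 151 CPM against 0.901 CPM, higher in 5 of 6 libraries and undetected in the members of wt 2 (log2 difference 6.66 ± 0.56, edgeR adjusted p = 3.04e-09). Stab1, a scavenger receptor shared with sinusoids and macrophages, was at 87.4, 813, 948, 846, 697 and 833 CPM against 95.9 ± 25.9 CPM, and only the value of wt 2 lay within the blood endothelial range (log2 difference 2.67 ± 0.28, edgeR adjusted p = 9.06e-08). Nrp2, the coreceptor of VEGF-C, was at 483 ± 131 against 99.3 ± 14.3 CPM (log2 difference 2.16 ± 0.21, edgeR adjusted p = 4.35e-08).

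**Figure D2:**
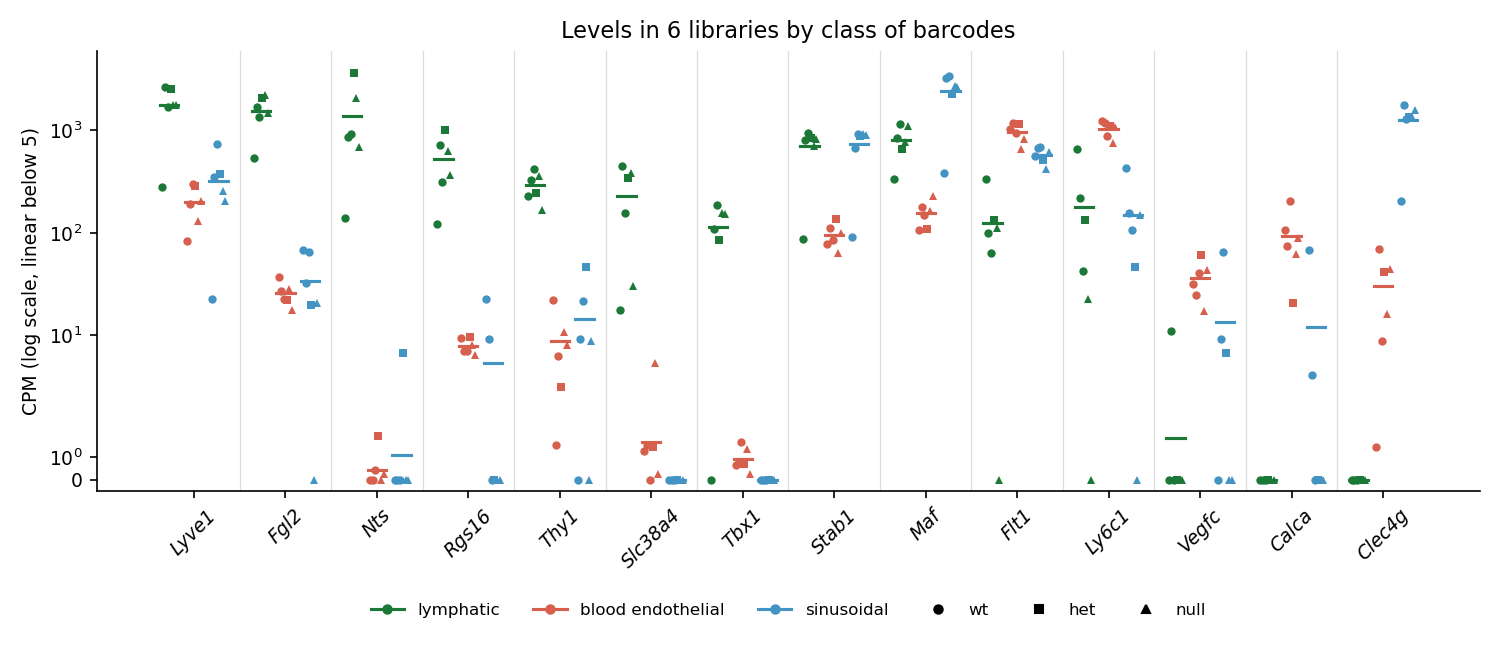
Levels of 14 genes in CPM (log axis, linear below 5) in lymphatic, blood endothelial and sinusoidal barcodes. Each point is 1 of the 6 libraries, with its genotype given by its shape, and the bar marks the mean. Fgl2, Nts and Thy1 are higher in every library in lymphatic barcodes than in blood endothelium, Flt1 and Ly6c1 are lower, Stab1 overlaps between lymphatic and sinusoidal barcodes, and Maf is highest in sinusoidal barcodes.

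By the size of the difference, with the rule genes set aside, Nts led. This precursor of the peptide neurotensin was at 140, 868, 919, 3655, 2091 and 682 CPM in lymphatic barcodes and at 0.434 ± 0.745 CPM in blood endothelium (log2 difference 11.01 ± 0.34, edgeR adjusted p = 2.48e-18). The lymphatic levels spanned a wide range, from wt 2 at the bottom to het 1 at the top, without overlap with the other class. The sum of wt 2 includes its members of doubtful label. Gm21541, the copy of Ccl21a described above, had 41 lymphatic UMIs and 0 blood endothelial UMIs in these libraries, at least 526-fold higher when the undetected class is given 3 UMIs in all. Its UMIs may be reads of Ccl21a, a rule gene, so that this value is a description only. Sh3gl3, an endophilin of membrane trafficking, was at 128 ± 52.4 CPM against 0.427 CPM (log2 difference 7.63 ± 0.55, edgeR adjusted p = 1.29e-10). The amino acid transporter Slc38a4 was at 17.5, 451, 157, 343, 382 and 30.3 CPM against 1.65 CPM (log2 difference 6.98 ± 0.47, edgeR adjusted p = 5.51e-11), low in wt 2 and null 3. Other leading genes were Ripor3 (42.7 against 0.55 CPM), Clca3a1 of the chloride channel regulator family (216 ± 126 against 2.72 CPM), Pkhd1l1, a fibrocystin-like membrane protein (128 ± 60.2 against 1.91 CPM), the guidance cue Sema3a (63.9 ± 46.5 against 0.788 CPM) and Pcsk6, a proprotein convertase (235 ± 124 against 3.78 CPM), with log2 differences from 5.78 to 6.21. Further identity genes were Fxyd6, a regulator of the sodium pump, at 509 ± 191 against 24.4 CPM (log2 difference 4.24), and Cp, the copper-binding ferroxidase ceruloplasmin, at 480 ± 148 against 38.6 CPM (log2 difference 3.54).

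The genes furthest in the other direction were nearly or wholly undetected in lymphatic barcodes. Calca, which codes for calcitonin and the vasodilator peptide CGRP, had 0 lymphatic UMIs against 1712 UMIs in blood endothelium (93.0 ± 62.4 CPM), at least 14.8-fold lower (edgeR adjusted p = 1.33e-06). The same allowance of 3 UMIs set the bound for the membrane metalloproteinase Mmp15 (at least 6.28-fold lower), the Notch-modifying glycosyltransferase Mfng (at least 5.51-fold lower), the lectin Clec4g (at least 4.02-fold lower), the phosphatase Ptprr (at least 3.89-fold lower), the GTPase-activating protein gene Arhgap20 (at least 3.76-fold lower), Fam107a (at least 3.67-fold lower) and the mitochondrial acetyl-CoA synthetase Acss1 (at least 3.37-fold lower). Crispld1 had 1 lymphatic UMI and was 29.9-fold lower, with a 95% counting interval of 5.35 to 1181. Clec4g is a gene of the sinusoidal list, and its blood endothelial UMIs numbered 464, beside 575 of Dnase1l3 and 556 of Fcgr2b from the same list. Whether the blood endothelial class, chosen for 0 Stab2 UMIs, holds sinusoidal cells in which Stab2 went undetected was not tested. Its levels of genes that sinusoids share may include them. Of 20 blood endothelial list genes, 18 were lower and 0 were higher, and their median log2 difference was -2.34. Flt1 was at 332, 98.9, 64.1, 135, 112 and 0 CPM against 966 ± 197 CPM (log2 difference -3.30 ± 0.32, edgeR adjusted p = 2.45e-08), highest in wt 2. Ly6c1, a surface antigen of capillary endothelium, was lower too (log2 difference -3.12, edgeR adjusted p = 1.15e-06), as was Vwf, the clotting factor carrier of veins and arteries (41.0 against 246 CPM). Notch1, whose product is a receptor of arterial fate, was at 271 and 270 CPM (log2 difference -0.13, edgeR adjusted p = 0.768). Of 14 pan-endothelial genes, the 3 that chose the blood endothelial class were set aside, and 6 of the other 11 fell below blood endothelium while 0 rose above it, among them Eng, a TGF-beta coreceptor, at 402 against 762 CPM. Blood endothelial barcodes had to hold at least 2 of those 3 genes, and the lymphatic rule set no condition on them, so genes that track them differ in part by selection.

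In the VEGF-C and angiopoietin pathway, 4 of 19 tested genes were higher and 8 lower in lymphatic barcodes (median log2 difference -0.54, 4 higher and 5 lower without null 3), with ligand and receptor genes in both directions. Vegfc itself, the lymphatic growth factor, had 1 UMI in lymphatic barcodes and 756 in blood endothelium, a 19.6-fold difference with a counting interval of 3.51 to 776. Angpt2, a ligand of the TIE2 receptor, was at 0, 220, 200, 110, 247 and 90.9 CPM in lymphatic barcodes against 11.3 ± 3.79 CPM, higher in 5 of 6 libraries (log2 difference 3.43 ± 0.43, edgeR adjusted p = 1.84e-06). Its receptor gene Tek was at 101 ± 37.4 against 356 ± 66.3 CPM (log2 difference -1.96 ± 0.23, edgeR adjusted p = 7.1e-07), and the related Tie1 at 174 against 236 CPM did not pass (edgeR adjusted p = 0.109). The ligand was thus higher and its receptor lower in the same barcodes. Kdr, the gene of VEGFR-2, was at 482 ± 107 against 695 ± 113 CPM (log2 difference -0.65 ± 0.20, edgeR adjusted p = 0.0311), a call lost with DESeq2, with RLE scaling, without the library block and without any 1 of wt 2, wt 3, het 1 and null 3. Ptpn14, a phosphatase linked to VEGFR-3 signaling, was at 279 ± 115 against 56.1 CPM (log2 difference 2.17, edgeR adjusted p = 1.35e-07).

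In the adrenomedullin axis, which lymphatic growth requires, the peptide gene and its receptor genes differed in opposite directions. Adm, the peptide, was at 61.2 ± 42.7 against 14.2 CPM (log2 difference 2.03, edgeR adjusted p = 0.00151), a call lost when thinned. The receptor Calcrl was at 454 against 1459 CPM (log2 difference -1.88, edgeR adjusted p = 2.38e-06), and its partner Ramp2 at 438 against 909 CPM (log2 difference -1.16, edgeR adjusted p = 8.71e-05). Both receptor genes were therefore lower but abundant in lymphatic barcodes.

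Of 18 valve and collecting vessel genes, all tested, 9 were higher and 3 lower (median log2 difference 0.99). Foxc2, the forkhead factor of valve formation, was at 35.0, 44.0, 64.1, 0, 22.5 and 106 CPM against 4.17 ± 1.68 CPM (log2 difference 3.22 ± 0.62, edgeR adjusted p = 0.000441), undetected in het 1. Cldn11, a tight junction claudin reported at lymphatic valves, was at 17.5, 55.0, 35.6, 0, 90.0 and 45.4 CPM against 0.576 CPM (log2 difference 5.63 ± 0.90, edgeR adjusted p = 6.35e-05), and was likewise undetected in het 1. Gja1, connexin 43, was at 367, 363, 321, 331, 472 and 227 CPM against 52.7 ± 16.1 CPM (log2 difference 2.59, edgeR adjusted p = 3.36e-09), the most even of the valve genes named here. Foxp2, a forkhead factor, was at 17.5, 154, 135, 110, 157 and 90.9 CPM against 1.8 CPM (log2 difference 5.73, edgeR adjusted p = 3.18e-09). Nfatc1, a calcium-regulated factor, was at 309 ± 176 against 60.3 CPM, and Itga9, the integrin chain that valve leaflets use to bind fibronectin, at 129 ± 40.9 against 41.1 CPM, both higher. In contrast, Gata2, a zinc finger factor of valve development, was at 48.7 against 183 CPM (log2 difference -2.07, edgeR adjusted p = 8.71e-05), and Gja4, connexin 37, at 32.2 against 84.3 CPM (log2 difference -1.46, edgeR adjusted p = 0.00727). The third gene called lower, the cadherin Fat4, rested on 2 lymphatic UMIs.

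Junction and matrix genes were mixed, with 4 of 17 tested higher and 5 lower (median log2 difference -0.29). The laminin chains moved apart. Lama4 was at 214 against 33.3 CPM (log2 difference 2.62, edgeR adjusted p = 3.99e-07) and Lamb1 at 134 ± 85.1 against 12.9 CPM (log2 difference 3.20, edgeR adjusted p = 1.4e-07), whereas Lama5 was at 11.6 against 53.3 CPM (log2 difference -2.48, edgeR adjusted p = 0.00101). The elastic fiber protein gene Fbln5 was higher (log2 difference 1.11), and the scaffold gene Tjp1 was at 136 against 260 CPM (log2 difference -1.05, edgeR adjusted p = 0.00206). Esam, an adhesion molecule of blood endothelial junctions, was lower as well (log2 difference -2.04, edgeR adjusted p = 9.7e-06).

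Among genes of leukocyte and lymph trafficking, 7 of 16 tested were higher and 3 lower (median log2 difference 0.61), or 8 and 5 without wt 2. Il7, the survival cytokine of lymphocytes, was at 0, 121, 78.4, 73.6, 90.0 and 121 CPM against 2.01 ± 1.01 CPM (log2 difference 5.05 ± 0.58, edgeR adjusted p = 4.4e-07), undetected in wt 2. Ackr2, which scavenges inflammatory chemokines, was at 80.4 against 19.6 CPM (log2 difference 1.82, edgeR adjusted p = 0.00089). The sphingosine kinase Sphk1 (47.8 against 8.25 CPM) and the sphingosine-1-phosphate exporter Spns2 (119 against 61.3 CPM) were higher, and the receptor S1pr1 was at 322 against 630 CPM (log2 difference -1.10, edgeR adjusted p = 0.000328). The call of Spns2 was lost with DESeq2, when thinned and without any 1 of wt 4, het 1 and null 3, and those of Sphk1 and Ackr2 when thinned. Ccl2, a monocyte chemokine, was at 1189, 176, 14.3, 454, 247 and 0 CPM, a spread that overlapped blood endothelium (56.9 ± 64.6 CPM), and was higher in 4 of 6 libraries (edgeR adjusted p = 0.000138). Cx3cl1, the membrane-bound chemokine fractalkine, had 1 UMI in lymphatic barcodes against 665, a 17.3-fold difference with a counting interval of 3.09 to 683.

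Several antigen presentation and lipid handling genes were lower, and others were not called. Of 9 tested antigen presentation genes 6 were lower and 0 higher (median log2 difference -1.33). Macrophage and lymphocyte list genes, whose cells carry such RNA too, had medians of -1.50 and -1.27, and their part was not tested. Cd74, the invariant chain that escorts MHC class II, was at 227, 857, 399, 711, 472 and 212 CPM against 1525 ± 441 CPM, with no overlap (log2 difference -1.88 ± 0.21, edgeR adjusted p = 2.19e-07). The class II chain gene H2-Aa was at 177 against 482 CPM (log2 difference -1.61, edgeR adjusted p = 3.72e-05). Of 11 tested lipid handling genes 6 were lower and 1 higher (median log2 difference -0.80). Cd36, a fatty acid carrier of capillaries, was at 962, 44.0, 149.6, 417, 67.5 and 90.9 CPM against 1157 ± 228 CPM (log2 difference -2.59 ± 0.36, edgeR adjusted p = 8.04e-06). Fabp4, a fatty acid binding protein, was lower over the 6 libraries (log2 difference -3.08, edgeR adjusted p = 0.000273), but in wt 2 it stood at 3479.5 CPM and in the others at 12.3 to 308. The gene called higher was Abca1, which exports cholesterol to HDL, at 507, 561, 428, 221, 315 and 439 CPM against 43.1 ± 14.8 CPM (log2 difference 3.15 ± 0.21, edgeR adjusted p = 5.51e-11).

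Genes of other cell types gave a measure of foreign RNA. Of the lists of cell types that should be absent, hepatocyte (4 tested), gastric (4), platelet (2) and hepatic stellate (2) genes had 0 called. Alveolar (2 of 2), macrophage (2 of 6), kidney (1 of 5) and lymphocyte (1 of 4) genes were called lower only, epididymal genes (1 of 7) higher only, and of 5 mural genes 1 was higher and 1 lower. Of 4 tested mesothelial genes 2 were higher, Upk3b (log2 difference 2.42, edgeR adjusted p = 0.0187) and Lrrn4 (log2 difference 3.73, edgeR adjusted p = 0.0267), each in only 3 of 6 libraries, and the call of Upk3b was lost without het 1 and without wt 4. Of 7 fibroblast genes 1 was higher and 2 lower, and of 4 erythroid genes 0 were higher and 3 lower. These counts moved with single libraries and with the members taken. Without null 3, of 4 tested epididymal genes 0 were higher and 2 lower, 0 macrophage genes were called and 1 erythroid gene was lower. Without wt 2, 0 macrophage and 0 kidney genes were called, and 3 fibroblast and 3 mural genes were lower. With only the members that held Ccl21a, epididymal genes were 0 higher and 3 lower of 7, fibroblast genes 0 higher and 4 lower of 7, and of mesothelial genes 1 was tested and not called. The part of these transcripts in the differences above was not tested.

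**Figure D3:**
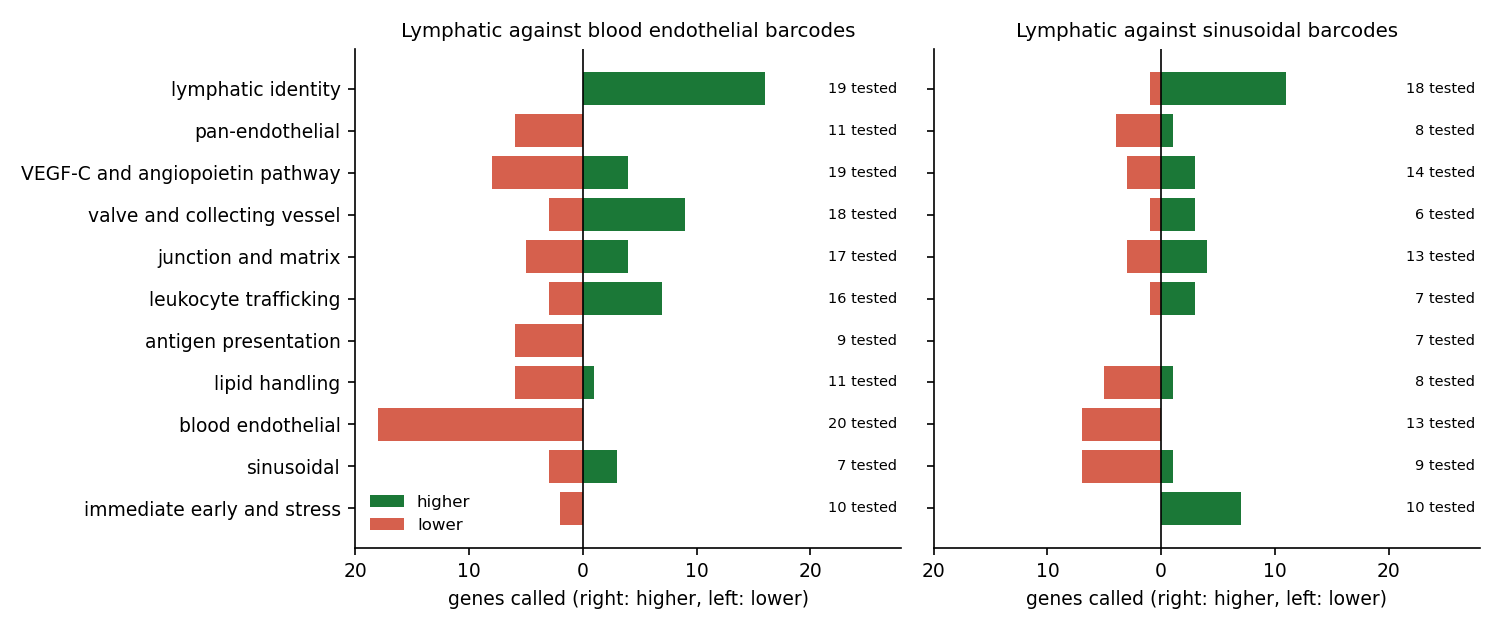
Number of genes of each fixed list called higher (bars to the right) or lower (bars to the left) in lymphatic barcodes than in blood endothelial and than in sinusoidal barcodes, by edgeR at an adjusted p under 0.05, with the number tested. Of the identity genes tested 16 were higher against blood endothelium and 11 against sinusoidal barcodes, and the blood endothelial list was lower in 18 and 7 of its genes.

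Liver sinusoidal endothelium shares Lyve1, Stab1, Maf and VEGFR-3 with lymphatics, and the second comparison measured where they part. In the same 6 libraries 2104 genes were tested and edgeR called 527 (25%), 282 higher (13.4%) and 245 lower (11.6%) in lymphatic barcodes, with 798 called without wt 2, 368 without null 3 and 287 without wt 3. DESeq2 called 486 (23.1%), 270 higher (12.8%) and 216 lower (10.3%). The fewer genes tested reflect the small number of sinusoidal barcodes. Stab1 averaged 704 ± 313 CPM in lymphatic and 733 ± 329 CPM in sinusoidal barcodes (log2 difference 0.03 ± 0.22, edgeR adjusted p = 0.943). Nr2f2 averaged 474 ± 169 and 472 ± 221 CPM (log2 difference 0.16 ± 0.28, edgeR adjusted p = 0.737), and Nrp2 483 ± 131 and 433 CPM (log2 difference 0.22 ± 0.26, edgeR adjusted p = 0.611). For these 3 genes no difference was detected.

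Lyve1 did differ. It was at 280, 2671, 1689, 2563, 1777 and 1757 CPM in lymphatic and at 22.7, 352, 730, 372, 254 and 204 CPM in sinusoidal barcodes (log2 difference 2.67 ± 0.30, edgeR adjusted p = 1.71e-05), higher in every library. Maf went the other way, at 332, 835, 1161, 662, 765 and 1106 CPM against 386, 3224, 3434, 2267, 2713 and 2670 CPM (log2 difference -1.41 ± 0.23, edgeR adjusted p = 0.000401), with wt 2 the only library in which the classes were close. That library held 11 sinusoidal barcodes, whose Lyve1 and Maf were far below the sinusoidal values of the other libraries. The mannose receptor Mrc1 was at 113 ± 59.7 against 930 ± 494 CPM (log2 difference -3.02, edgeR adjusted p = 1.37e-05), although it had been higher than in blood endothelium.

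Nts, Pcsk6, Slc38a4 and Sh3gl3 led toward lymphatic barcodes in both comparisons, which share their lymphatic barcodes. Nts had a ratio of 1096 (counting interval 196 to 43366), Pcsk6 of 214 (37.6 to 8500) and Rgs16, which shortens G protein signaling, of 141 (47.6 to 687), at 122, 726, 314, 1006, 630 and 363 CPM. The sodium channel gene Scn3a (at least 65.0-fold higher), Slc38a4 (at least 62.2-fold), Sh3gl3 (at least 38.1-fold), Wipf3 (at least 37.0-fold) and Foxp2 (at least 31.4-fold) had 0 sinusoidal UMIs. Dtx1, a ubiquitin ligase of the Notch pathway, had a ratio of 143 (25 to 5711), and Fxyd6 a log2 difference of 5.76 (edgeR adjusted p = 3.87e-06).

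Several genes that mark liver sinusoids were nearly undetected in lymphatic barcodes, although Stab1, Lyve1 and Mrc1 of the same list were present. Of 9 tested sinusoidal list genes 7 were lower and 1 higher, the latter Lyve1 itself, with a median log2 difference of -4.61. Clec4g had 0 lymphatic and 1205 sinusoidal UMIs, at least 239-fold lower. Oit3 (at least 80.9-fold lower) and the scavenger receptor Msr1 (at least 25.6-fold lower) also had 0 lymphatic UMIs. The nuclease Dnase1l3 had 2 UMIs (ratio 462, interval 128 to 3814), the Fc receptor Fcgr2b 3 (ratio 240, interval 81.9 to 1165) and Fam167b 1 (ratio 183, interval 32.5 to 7235). The endocytic protein gene Ehd3 had a log2 difference of -7.08 (edgeR adjusted p = 7.04e-06), the plexin Plxnc1 was at 12.6 against 501 CPM, the retinoic acid hydroxylase Cyp26b1 at 37.6 against 904 CPM and the NAD-consuming enzyme Cd38 at 20.4 against 490 CPM.

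Immediate early genes, which dissociation of tissue can induce, separated lymphatic from sinusoidal but hardly from blood endothelial barcodes. Against sinusoidal barcodes 7 of 10 were higher and 0 lower (median log2 difference 1.58), and against blood endothelium 0 were higher and 2 lower (median -0.24), or 2 higher and 3 lower without wt 2. Of the genes higher than in sinusoidal barcodes, Atf3, Dnajb1 and Junb lost the call without wt 3. The zinc finger factor Egr1 averaged 2596 ± 1371 CPM in lymphatic, 2051 ± 928 CPM in blood endothelial and 352 ± 294 CPM in sinusoidal barcodes (log2 difference from sinusoidal 2.91, edgeR adjusted p = 7.15e-05). Fos, an AP-1 subunit, had a log2 difference from sinusoidal barcodes of 2.23 (edgeR adjusted p = 0.000478) and Junb, another subunit, of 1.77 (edgeR adjusted p = 0.00752), a call lost without het 1 and without wt 3. Icam1, an adhesion molecule of the leukocyte trafficking list, was at 818 ± 558 against 154 CPM (log2 difference 2.39, edgeR adjusted p = 0.000202). Sinusoidal barcodes stand for liver cells, whereas lymphatic barcodes come from a pool of organs. By the paper's methods, liver, kidney, and lung with stomach were dissociated with different enzyme mixes. Class, organ and cell handling thus cannot be told apart against sinusoidal barcodes, and the part of cell handling was not tested.

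Single barcodes differed in which lymphatic genes they showed. Thinned to 1000 UMIs, which 192 members reached and 52 did not, Ccl21a was detected in 79.7% (81.6% in all members unthinned), Lyve1 in 56.25% (63.5%), Fgl2 in 63.5% (68.9%), Nts in 27.1% (32.8%) and Thy1 in 26.0% (41.0%). Stab1 was detected in 38.5% and Slc38a4 in 20.8%. Of the valve genes, Gja1 was detected in 26.0%, Itga9 in 13.5%, Foxp2 in 10.4%, Foxc2 in 6.25% and Cldn11 in 2.60%, and Il7 was detected in 9.38%. Among 9630 blood endothelial barcodes thinned likewise Lyve1 was in 12.7%, Fgl2 in 2.04% and Nts in 0.0623%. B cells, taken as a type that should lack Lyve1 and Nts, showed them in 1.16% and 0.0392% of 7659 thinned barcodes (median 2639 UMIs before thinning), and the lymphatic shares lay above these levels. Fgl2 was in 7.32% of the B cells, more than in blood endothelium, so that B cells give no background level for it.

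Members were also split by Lyve1, as a description across barcodes. The side without Lyve1 holds more of the members whose label is in doubt, since Lyve1 was found in 142 of the 199 members with Ccl21a but in 5 of the 15 that qualified only through Flt4 and 1 of the 13 only through Pdpn. Of the 192 members with at least 1000 UMIs, 130 held Lyve1 (median 2219.5 UMIs) and 62 did not (1898.5 UMIs). Nts was detected in 47.7% of the former and 17.7% of the latter, and of the rule genes Reln in 85.4% and 41.9% and Ccl21a in 92.3% and 58.1%. Gja1 (45.4% and 41.9%), Foxc2 (11.5% and 8.06%) and Cldn11 (8.46% and 6.45%) were at near shares. The valve genes Foxc2 and Cldn11 were found in 20 and 15 members, of which 3 held both. In the 3 libraries of a known genotype with enough barcodes of both kinds (null 3, wt 3 and wt 4; the second library without a group was left out), edgeR called 0 of 624 genes (0%), with 40 at an unadjusted p under 0.05, and DESeq2 called 0, with 16. Without null 3 edgeR called 12.

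The share of lymphatic barcodes among lymphatic and blood endothelial barcodes, with sinusoidal barcodes left out of the total, varied widely between libraries. It was 0.504, 0.640, 4.98, 4.47 and 0% in wt 1 to wt 5 (0 of 15 in wt 5, upper 95% limit 21.8%), 1.09 and 1.15% in het 1 and het 2, and 5.39 and 2.09% in null 2 and null 3. The exact 95% binomial interval was 3.34 to 7.12% in wt 3 and 3.74 to 7.49% in null 2, and it covers counting error only. The wt values spanned those of all het and null libraries but null 2. The mean was 3.74 ± 2.33% (n = 2) in null, 1.12 ± 0.0471% (n = 2) in het and 2.12 ± 2.40% (n = 5) in wt, a difference of 1.62 points for null (exact permutation test, 2-sided, p = 0.381) and of -1.0 points for het (p = 0.952, exact permutation test). The smallest p that 21 splits allow is 0.0952, so that this design could not pass 0.05. Without null 2 the null difference was -0.0270 points. The members of wt 1, and those of wt 2 without Ccl21a, all qualified only through Flt4 or only through Pdpn. With only members that held Ccl21a (chosen after seeing the data), the shares were 0, 0.268, 3.96, 3.88 and 0% in wt 1 to wt 5. They were 0.871 and 1.01% in het and 4.77 and 1.97% in null. The differences were then 1.75 points for null (exact permutation test, p = 0.381) and -0.680 points for het (exact permutation test, p = 0.952). Fewer lymphatic cells in the tissue and fewer recovered from it cannot be told apart here.

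**Figure D4:**
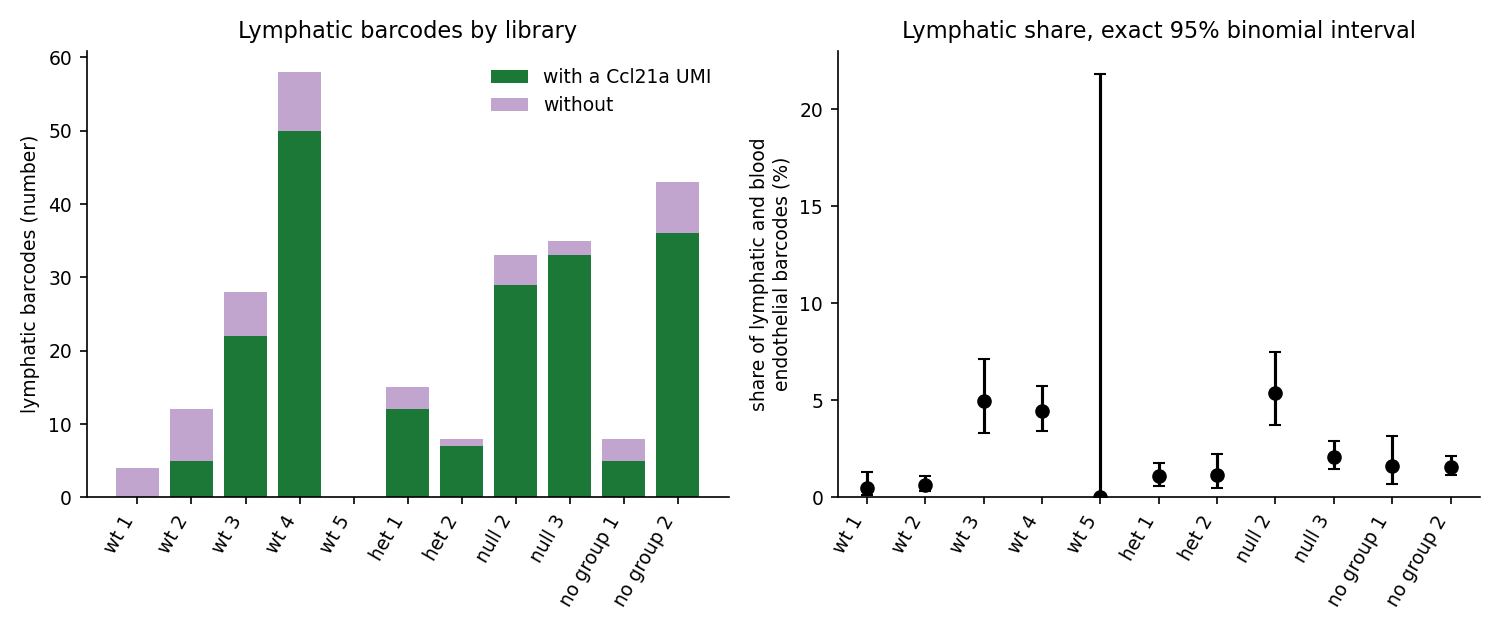
Left, number of lymphatic barcodes in each tissue library, with and without a Ccl21a UMI. Right, their share of lymphatic and blood endothelial barcodes together in percent, with the exact 95% binomial interval. The counts run from 0 in wt 5 to 58 in wt 4, and the shares of wt 3, wt 4 and null 2 lie above those of the other libraries, and wt holds both low and high libraries.

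Whether loss of Nalcn goes with altered lymphatic RNA was tested in the 6 libraries with sex as a covariate. Of 2140 genes edgeR called 4 higher (0.187%) and 0 lower in null than in wt members, with 46 at an unadjusted p under 0.05, and DESeq2 called 2 (0.0935%), 1 higher and 1 lower (0.0467% each). All 4 are secreted products of the epididymis. Gpx5 was at 0, 0, 0, 24.5, 270 and 1878 CPM (edgeR adjusted p = 0.0211), and Lcn8 at 22.5 and 1257 CPM in null 2 and null 3 (edgeR adjusted p = 0.0322). Both had 0 UMIs in every wt library of this test, so no exact difference is given. Defb47 was at 45 and 772 CPM in these libraries (edgeR adjusted p = 0.0441) and Spag11b at 179.9 and 1393 CPM (edgeR adjusted p = 0.0322). Blood endothelial barcodes of the same libraries carried them as well, with Gpx5 at 857 CPM in null 2 and 428 CPM in null 3, and the library null 3 is the one labelled female with members holding Y-linked RNA. The count was 0 without the barcodes Scrublet marked, 0 without the sex covariate and 28 without wt 2 (20 higher and 8 lower). With the replicate number as a block in place of the sex covariate, and without het 1, the count was 17 (11 higher and 6 lower). Only 1 het library held 10 members, so het was compared with wt at a minimum of 5 (7 libraries), where edgeR called 0 of 1474 genes (0%), with 59 at an unadjusted p under 0.05, and DESeq2 called 1, lower (0.0678%). Whether the genotype effect differed between lymphatic and blood endothelial barcodes was tested on 9499 genes. For null edgeR called 17 (0.179%), 7 with a more positive effect in lymphatic barcodes (0.0737%) and 10 with a more negative one (0.105%). For het there was 1 library, assumed in the fit to vary like the others, so that genotype and library cannot be told apart. There edgeR called 7 (0.0737%), 3 more positive (0.0316%) and 4 more negative (0.0421%), and DESeq2 called 0 in both (0%), with 121 and 93 at an unadjusted p under 0.05.

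No lymphatic barcode was found in blood. The 11 blood libraries were 10 of ZsGreen-positive cells from tumor-free mice (2 wt, 571 and 608 days of age, 4 het, 551 to 649 days, and 4 null, 551 to 613 days) and 1 of peripheral blood mononuclear cells (wt, 120 days). Among their 2788 passing barcodes the rule found 0, which allows a share of up to 0.108%. In tissue, 161 of 45744 barcodes with a Ptprc UMI (0.352%) met the marker part of the rule and were left out by its Ptprc part, and what they hold was not tested.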

How the data were processed

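Single-cell 3' RNA libraries (Chromium v3) were measured in 22 samples, and 10 of the 11 tissue libraries held lymphatic barcodes. The authors aligned reads to mm10 and deposited filtered matrices of raw UMI counts per gene and barcode. The labels name Cell Ranger 2.1.1 and the matrix headers Cell Ranger 3.0.2. Hashtag counts, which would give the organ, were not used here. Tissue libraries totaled 8571019 to 139793927 UMIs. Intervals and floors cover counting error only.

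Groups came from the titles, or from the strain label for null 3. Counts were summed per library and class. Genes passing filterByExpr were tested with edgeR 4.0.16 (TMM, quasi-likelihood, limma 3.58.1, R 4.3.3) and adjusted over all genes, with the library as a block between classes and sex as a covariate between genotypes. DESeq2 1.42.0, other filters and normalization, Scrublet (scanpy 1.11.5), thinning to 1000 UMIs and leaving out each library were alternatives. Tests were checked on simulated data. Shares were compared by exact permutation. Libraries needed 10 barcodes of each class. Of 31053 identifiers, 30934 were in GENCODE vM21.

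The members, the 25 gene lists and the tests were chosen with earlier results of these data known. Named genes are the rule genes, list members, the 10 called genes with the largest difference in each direction with the same sign in every library and at least 20 CPM in the higher class, and up to 5 called genes in each direction per genotype test, except a few that are not reported here. Replicate numbers do not pair animals by any label. All tests were 2-sided.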

Additional observations from a re-analysis of the deposited data

Results flagged for a closer look

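The genotype effect differed between lymphatic and blood endothelial barcodes, by edgeR's interaction test at an adjusted p under 0.05, for 17 of 9499 genes (0.179%) for null and 7 (0.0737%) for het, with 383 and 336 at an unadjusted p under 0.05, and DESeq2 called 0 for both. The het values compare the library het 1, assumed to vary like the others, with wt, so that genotype and library cannot be told apart. Each gene below lost its call under at least 1 setting, DESeq2 among them, and values are differences of log2 effects, lymphatic minus blood endothelial.

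For null, Igfbp5, which binds insulin-like growth factors, had 3.16 (edgeR adjusted p = 1.45e-06). Its lymphatic levels were 472, 176 and 2188 CPM in wt 2, wt 3 and wt 4, 834 in het 1 and 3148 and 1605 in null 2 and null 3, against 2184, 2329 and 1459, 1244, and 783 and 792 CPM in blood endothelium, so that wt 4 lay between the null libraries in lymphatic barcodes. The cystine transporter gene Slc7a11 had 7.06, with 0, 0 and 2 lymphatic UMIs in wt 2, wt 3 and wt 4 and 4 and 9 in null 2 and null 3. In blood endothelium it was at 54.6, 145 and 6.22 CPM in wt and 6.69 and 6.93 in null. The neutrophil gene S100a8 had 3.94, at 122, 55.0 and 0 CPM in wt and 112 and 197 in null in lymphatic barcodes, which overlap. In blood endothelium S100a8 was at 550, 539 and 27.8 CPM in wt and 87.0 and 65.4 in null. Clec4d (11.35) rested on 5 UMIs of null 3, and Acod1 (11.17) on 2 UMIs in each of 2 libraries, with 0 lymphatic UMIs of both in every wt library. In the other direction, Il6 had -4.93, with 717 CPM in wt 2, Inmt had -4.33 but turned to 0.31, 0.17 and 0.35 with at least 3 markers, with a Ccl21a UMI and without wt 2, which held 38 of its lymphatic UMIs (664 CPM) where no other library held over 5. The mural and fibroblast genes Rgs5, Mfap4 and Col1a1 had fitted values of -10.52, -10.48 and -10.55, or -4.07, -1.65 and -4.18 with DESeq2. All had 0 lymphatic UMIs in null 2 and null 3, so these are not measured sizes. Col1a1 was at 1609 CPM in wt 2, the library whose members carried the most fibroblast RNA.

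For het, the neutrophil chemokine Cxcl2 had 5.04, at 17.5, 495 and 135 CPM in wt 2, wt 3 and wt 4 and 442 in het 1 in lymphatic barcodes, against 762, 1680, 117 and 42.3 CPM in blood endothelium. G6pc had 4.29 but turned to -4.80 without Scrublet-marked barcodes, with 12 lymphatic UMIs in het 1 and 1 to 4 in the other 5 libraries. The globin genes Hba-a1 and Hbb-bt had fitted values of -12.48 and -12.06, or -7.32 and -6.55 with DESeq2. Both had 0 lymphatic UMIs in het 1, so these are not measured sizes. Hba-a2 had -3.99, and Fabp4, which was at 3479.5 CPM in the members of wt 2, had -5.85.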

How the results depend on the processing

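Of 98 list and leading genes checked that were called against blood endothelium, 80 kept the call and 98 the direction under every setting run, and of 57 against sinusoidal barcodes 49 and 57. Calls were lost in at least 1 setting by Kdr, Spns2, Sphk1, Adm, Ackr2, Mrc1, Foxc1, Fat4, Efnb2, Upk3b, Fabp4, Fabp5, Gja4, Hspa1a, Cx3cl1, Fbln5, Itga9 and Tjp1 (the last 4 only at 10% mitochondrial UMIs) in the former and by Angpt2, Atf3, Ccl2, Dnajb1, Efnb2, Junb, Lama4 and Tbx1 in the latter. Calls against blood endothelium (1221) were 550 at 10% mitochondrial UMIs, with 2 libraries left. Calls against sinusoidal barcodes (527) ranged from 287 to 798 with 1 library left out (798 without wt 2, 313 without het 1, 287 without wt 3), and were 241 without the library block and 190 thinned, where fewer genes were tested. Null against wt (4) ranged from 0 (without het 1, without wt 4) to 28 (without wt 2), with 11 without null 2, 2 without null 3 and 8 without wt 3. It gave 2 with DESeq2, 22 with no count filter, 15 with at least 3 markers, 17 with a Ccl21a UMI (chosen after seeing the data), 0 without the barcodes Scrublet marked, 1 at 500 genes, 0 without the sex covariate, 17 at 20 barcodes and 0 at 5 (chosen after seeing the data). With at least 3 markers or a Ccl21a UMI, wt 2 kept 5 members and left this test and the interactions, so the libraries changed as well. With the replicate number as a block in place of the sex covariate, and without het 1, null against wt gave 17. Only 2 replicate numbers are shared, with correlations of 0.0528 and -0.0150. Het against wt (0) gave 1 with DESeq2, 28 with no filter and 0 to 4 with a library left out. The null interaction (17) gave 0 with DESeq2, 9 with no filter, 9 without Scrublet-marked barcodes, 10 with a Ccl21a UMI and 0 (without null 3) to 28 (without wt 4), with 2 without het 1. The het interaction (7) gave 0 with DESeq2, 11 at 500 genes and 1 to 20, with 20 without wt 4. The Lyve1 split (0) gave 25 with no filter, 3 at 5 barcodes (chosen after seeing the data) and 0 to 12. The share difference for null was -0.332 points at 10% mitochondrial UMIs, and with a library left out ran from -0.0270 to 3.27. For het it ran from -1.53 to -0.284. With the rules applied to thinned barcodes the differences were 0.159 for null and -2.36 for het, and at 10% mitochondrial UMIs -2.79 for het.

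Directions turned for 4 of the genes named. Against sinusoidal barcodes, Stab1 was -0.095 without wt 3, -0.021 without wt 4 (up to 0.18 with another library left out), -0.091 without the block and -0.24 thinned, and Nr2f2 -0.060 with at least 3 markers, -0.046 without Scrublet-marked barcodes, -0.013 without the block and -0.12 thinned. In the interactions, Inmt was 0.31, 0.17 and 0.35 with at least 3 markers, with a Ccl21a UMI and without wt 2 (down to -11.18 without null 3), and G6pc was -4.80 without Scrublet-marked barcodes. The cause was not tested. At 10% mitochondrial UMIs no gene comparison other than that with blood endothelium had the libraries its design asks for or a degree of freedom left, nor had the Lyve1 split with 3 markers, a Ccl21a UMI or without Scrublet-marked barcodes, nor het against wt with the block or without those barcodes. With 1 UMI worth 7.13 to 22.5 CPM in the lymphatic sums, levels below this were not measurable in a library.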

Other observations

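The 2 libraries without a group held 8 and 43 lymphatic barcodes. Ccl21a was at 2992 and 7086 CPM in them, Mmrn1 at 2112 and 2552, Lyve1 at 1584 and 1186, Fgl2 at 1408 and 1441, and Nts at 4751 and 976. In het 2, with 8 members, Lyve1 was at 3355 and Nts at 655 CPM. In wt 1 the 4 members held no Ccl21a, Fgl2 or Nts UMI, and 3 UMIs each of Prox1 and Lyve1.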
